A study of Homo sapiens with 6 samples.

Results

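The ATF4 arm of the integrated stress response was followed through 10 genes, chosen by name with earlier results of these data known. They were the transcription factors ATF4, ATF3, ATF5, DDIT3, CEBPB and CEBPG, and the regulators DDIT4, TRIB3, NUPR1 and PPP1R15A. Of these, 9 had a probe set annotated to that gene alone, among 22395 genes measured in this way. ATF5 shares its probe set with a microRNA gene in the annotation and was not analysed here. The data are 6 whole-transcript arrays of RNA from A549, a long-established cell line from a human lung adenocarcinoma, in 3 groups of 2 arrays: vehicle, Comp.2 at 2 µM and Comp.4 at 2 µM. Cells were plated for 24 h before treatment and RNA was taken 2 days later. Comp.2 and Comp.4 are code-named members of 1 compound class, a numbered PIP compound whose number is spelled differently in the series design and in the treatment protocol. The series title describes them as sequence-specific inhibitors of histone acetyltransferases, the enzymes that place acetyl groups on histones.

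In the integrated stress response, kinases that sense amino acid shortage, protein misfolding, viral RNA or haem loss phosphorylate the translation factor eIF2α. General translation then slows, while the ATF4 messenger RNA is translated more, because upstream reading frames in its leader normally hold it back. ATF4 pairs with other basic leucine zipper (bZIP) proteins, turns on genes of amino acid supply and redox balance, and induces the further factors and feedback regulators measured here. ATF4 activity is set in large part by translation and protein turnover, and these arrays measured transcript levels alone.

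The promoters of ATF4, TRIB3, CEBPG and PPP1R15A are shown because they span the range of behaviour seen below, from the 2 genes that differed most between the compounds to the 1 whose groups lay closest. RefSeq promoter windows of GRCh38.p14 (250 bases before the annotated start and 50 from it on) were found for 9 of the 10 genes; NUPR1 had none. The ATF4 window is chr22:39520309-39520608, plus strand, and capitals mark TGACG, the core of the cAMP response element, read on the other strand as CGTCA:
ATF4: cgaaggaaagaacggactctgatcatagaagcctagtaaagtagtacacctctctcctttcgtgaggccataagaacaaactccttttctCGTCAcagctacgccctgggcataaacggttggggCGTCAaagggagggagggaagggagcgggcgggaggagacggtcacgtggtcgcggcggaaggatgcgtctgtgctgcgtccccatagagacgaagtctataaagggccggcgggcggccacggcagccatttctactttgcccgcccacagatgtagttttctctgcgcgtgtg
The TRIB3 window is chr20:381045-381344, plus strand, the first of 3 annotated starts, and held no match to any motif searched:
TRIB3: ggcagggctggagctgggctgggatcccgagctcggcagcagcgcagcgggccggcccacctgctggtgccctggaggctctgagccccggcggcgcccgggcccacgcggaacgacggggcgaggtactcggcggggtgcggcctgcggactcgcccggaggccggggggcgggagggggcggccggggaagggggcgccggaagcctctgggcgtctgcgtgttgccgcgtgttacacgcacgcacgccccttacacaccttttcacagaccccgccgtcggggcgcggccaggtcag
The CEBPG window is chr19:33373863-33374162, plus strand, the second of 2 annotated starts. The window of the first start held CCAAT but no C/EBP-ATF response element, and which start these cells use was not tested. Capitals mark a match to that element in the second:
CEBPG: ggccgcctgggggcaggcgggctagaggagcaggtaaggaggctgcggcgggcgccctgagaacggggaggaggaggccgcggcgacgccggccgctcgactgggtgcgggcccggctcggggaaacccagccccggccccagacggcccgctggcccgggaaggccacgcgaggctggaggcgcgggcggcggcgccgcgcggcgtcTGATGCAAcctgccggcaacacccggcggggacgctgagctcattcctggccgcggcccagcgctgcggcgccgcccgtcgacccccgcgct
The PPP1R15A window is chr19:48872171-48872470, plus strand, and capitals mark TGACG matches, of which the longer run is a full cAMP response element:
PPP1R15A: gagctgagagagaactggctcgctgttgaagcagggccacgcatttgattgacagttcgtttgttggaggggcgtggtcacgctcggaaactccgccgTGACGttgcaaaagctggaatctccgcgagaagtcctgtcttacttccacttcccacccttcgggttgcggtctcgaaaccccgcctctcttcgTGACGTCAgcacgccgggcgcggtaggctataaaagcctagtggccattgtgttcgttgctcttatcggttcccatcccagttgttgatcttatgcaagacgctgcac

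The C/EBP-ATF response element, a composite site bound by ATF4 with C/EBP partners, was searched as TGATGNAA on both strands. The 9 genes have 18 windows, since several have more than 1 annotated start. Windows of a gene can overlap, so that the same site counts more than once, as for ATF4 and DDIT3 below. The element occurred in 2 of the 18, 42 bases before the second CEBPG start and, as TGATGGAA, 191 bases before the first ATF3 start. Of 35116 promoter windows of this length over all genes, 3.62% held it. The full cAMP response element TGACGTCA lay 58 bases before the PPP1R15A start, in 1 of the 18 windows (1.85% of all windows). Its core TGACG, which overlaps it, occurred in 5 of the 18, of ATF4, CEBPB, PPP1R15A and ATF5 (24.6% of all windows). CCAAT, the box bound by NF-Y, occurred in 7 of the 18, of ATF3, CEBPB, CEBPG, DDIT3 and DDIT4 (34.6% of all windows), so the shares for these short motifs lay near those of all windows. An exact match to the ER stress element, which contains CCAAT, occurred in none of the 18 (0.0769% of all windows). Sites that depart from its exact letters were not searched, and the absence of so rare a match from 18 windows says little. These matches describe letters in short windows and were not tied to the array values.

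On the arrays, epithelial markers (KRT8, KRT18, KRT19, EPCAM, CDH1, CLDN7) averaged 7.45 to 7.62 per array on the log2 scale. Array medians over all probe sets were 4.55 to 4.56. The label calls the line alveolar basal. Averages were 4.45 to 4.67 for 7 alveolar type II markers and 4.37 to 4.60 for 3 basal markers, where among the type II markers ABCA3 stood at 7.19 to 7.24 in the group means and the surfactant genes SFTPA1, SFTPB, SFTPC and SFTPD at 2.83 to 4.82. Fibroblast (7), endothelial (7) and leukocyte (7) markers averaged 4.01 to 4.15, 4.45 to 4.57 and 4.33 to 4.46. No marker passed in any comparison. The epithelial average was 7.57 to 7.62 under Comp.2 against 7.45 to 7.51 in vehicle, and its part in the results was not tested. Whether the 2 arrays of a group came from separate cultures is not in the labels; p-values therefore measure the spread between these arrays, which may be technical. In bulk RNA, fewer cells with a transcript and less of it per cell cannot be told apart.

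The first question was what Comp.2 did to transcripts of the ATF4 arm. Levels of ATF4, TRIB3, CEBPG, DDIT3, DDIT4 and CEBPB lay lower on both Comp.2 arrays than on either vehicle array, NUPR1 lay higher, and ATF3 and PPP1R15A overlapped. The differences were small, at most 1.47-fold, and no member passed the test (limma, adjusted p under 0.05 over all genes, which 0.196% of genes passed). At an unadjusted p under 0.05, 4 of the 9 were lower (ATF4, TRIB3, CEBPG and DDIT4; 4.94% of all genes) and 1, NUPR1, was higher (6.23%). Without the second vehicle array fewer of the 9 were lower, and NUPR1, at 0.17, no longer passed. Nor did NUPR1 without the second Comp.2 array, where it had 0.16. Over all genes fewer passed as well, in both directions, without either array. The difference was below 0 for 8 of the 9 (48.7% of all genes) and above 0 for NUPR1 (51.3%). The median log2 difference of the 9 was -0.26, against 0.004 over all genes. Of all genes, 21% had lower and 22.7% higher arrays without overlap. The members were chosen with earlier results of these data known, so their counts here and below are no independent evidence of direction.

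ATF4, the factor that defines the arm, stood at 10.35 and 10.38 (log2) on the vehicle arrays, 9.92 and 9.97 under Comp.2, and 10.53 and 10.41 under Comp.4. Its order was thus Comp.2, vehicle, Comp.4, with no overlap between groups. Against vehicle, the Comp.2 mean was 1.34-fold lower (log2 difference -0.42, SE 0.076, 95% interval -0.60 to -0.24, adjusted p = 0.135 by limma), and 0.777% of genes had a lower difference. The call depended on how the spread was modelled. Fitted with a variance trend, the adjusted p was 0.00134, and in genes brighter than the median gene it was 0.0282 (0.00134 to 0.557 over 13 alternatives). Those fits called 0.723% and 0.706% of the genes tested lower. The difference itself was the same in those fits.

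**Figure D1:**
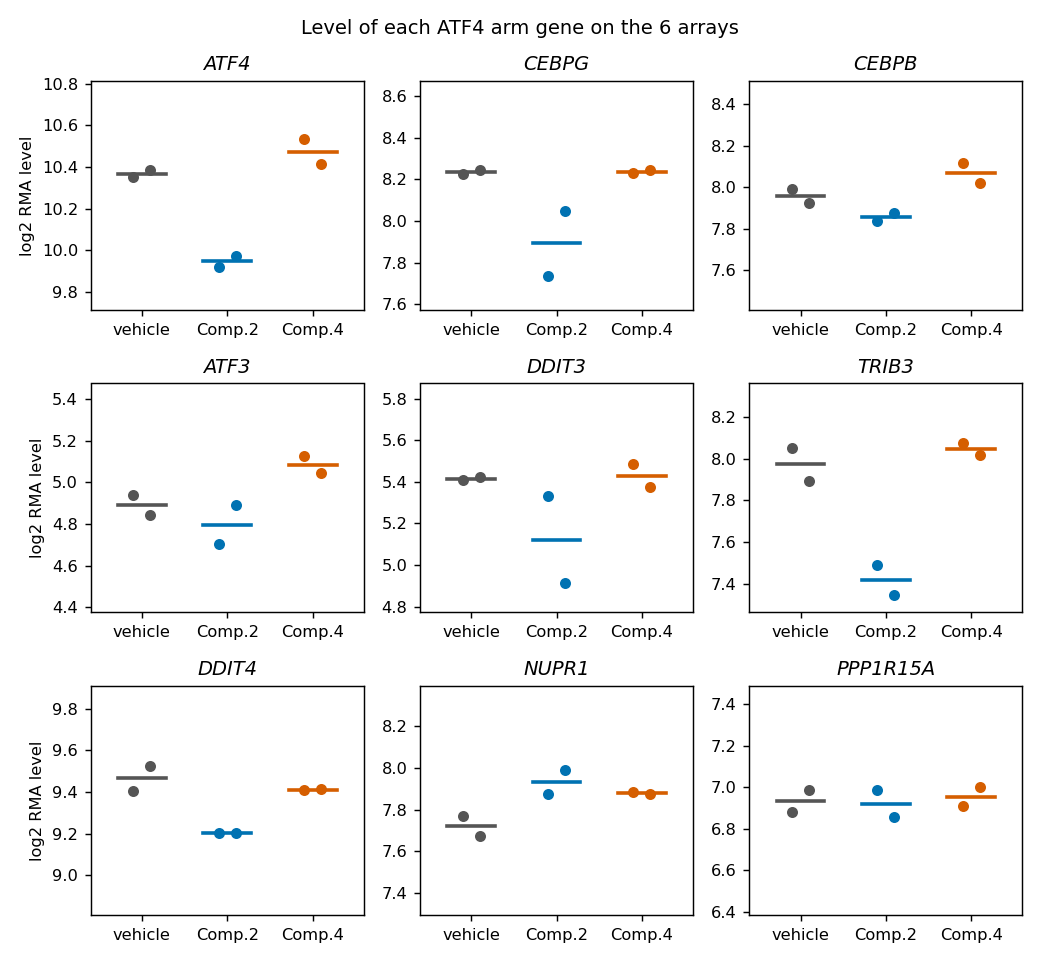
Log2 level (RMA) of 9 ATF4 arm genes on the 6 arrays, with a point per array and a bar at the mean of the 2 arrays of vehicle (grey), Comp.2 (blue) and Comp.4 (orange); every panel spans 1.1 log2 units and starts above 0. For ATF4 and TRIB3 the Comp.2 points (9.92 and 9.97; 7.49 and 7.34) lie apart below the other groups, and for PPP1R15A the 3 groups overlap.

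Of ATF4's bZIP partners, CEBPG encodes a short C/EBP protein that heterodimerises with ATF4. It had 8.23 and 8.25 in vehicle, 7.74 and 8.05 under Comp.2, and 8.23 and 8.25 under Comp.4. Both Comp.2 arrays were below the other 4, but they lay 0.31 apart from each other, so the size of the mean difference, -0.34 (95% interval -0.60 to -0.09, adjusted p = 0.344), depended on 1 array: it was -0.19 without the first Comp.2 array and -0.50 without the second. CEBPB, a C/EBP factor of stress and acute-phase responses, had 7.99 and 7.92 in vehicle, 7.84 and 7.87 under Comp.2, and 8.11 and 8.02 under Comp.4. The groups did not overlap, but the Comp.2 difference from vehicle was -0.10 with an interval that crossed 0 (-0.28 to 0.08).

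ATF3, a stress-induced bZIP factor that can repress its own pathway, had 4.94 and 4.85 in vehicle, 4.70 and 4.89 under Comp.2, and 5.13 and 5.05 under Comp.4. Vehicle and Comp.2 overlapped (difference -0.09, 95% interval -0.31 to 0.12), and the Comp.4 arrays were the highest. DDIT3 encodes CHOP, a bZIP factor linked to cell death under prolonged stress. Its brighter probe set had 5.41 and 5.42 in vehicle, 5.33 and 4.91 under Comp.2, and 5.49 and 5.37 under Comp.4. The Comp.2 arrays disagreed by 0.42, and the difference from vehicle of -0.29 (95% interval -0.62 to 0.03) became -0.08 without the second Comp.2 array and -0.50 without the first. The other DDIT3 probe set was dimmer, between 2.88 and 3.22 on all 6 arrays, and differed by -0.08 under Comp.2 (95% interval -0.37 to 0.21). Its Comp.4 difference from vehicle was -0.17, while that of the brighter one was 0.01. Mean levels of ATF3 and of both DDIT3 probe sets were below that of the median gene (5.35), where RMA background makes differences look smaller.

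Among the regulators, TRIB3 encodes a pseudokinase induced by ATF4 and CHOP that restrains ATF4 in return. It had 8.05 and 7.89 in vehicle, 7.49 and 7.34 under Comp.2, and 8.08 and 8.02 under Comp.4. Both Comp.2 arrays were the lowest of the 6 by a clear gap, and vehicle and Comp.4 overlapped. TRIB3 had the largest difference of the arm, 1.47-fold lower under Comp.2 than in vehicle (log2 difference -0.56, SE 0.090, 95% interval -0.77 to -0.34, adjusted p = 0.121 by limma). It ranked 67th from the bottom of 22395 genes. The adjusted p was 0.00466 when a variance trend was fitted and 0.0227 in the brighter genes (0.00466 to 0.517 over 13 alternatives).

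DDIT4 encodes REDD1, which inhibits the growth kinase complex mTORC1 and also answers to hypoxia, glucocorticoids and p53. It had 9.41 and 9.53 in vehicle, 9.20 and 9.20 under Comp.2, and 9.41 and 9.41 under Comp.4. The Comp.2 arrays were below all others, and Comp.4 fell within the range of vehicle. The Comp.2 difference from vehicle was -0.26 (95% interval -0.44 to -0.09, adjusted p = 0.304, or 0.0271 with a variance trend and 0.0271 to 0.700 over the alternatives).

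NUPR1, a small stress-induced chromatin protein, departed from this pattern. It had 7.77 and 7.67 in vehicle, 7.87 and 7.99 under Comp.2, and 7.89 and 7.87 under Comp.4. Every treated array was above both vehicle arrays, and the 2 compounds overlapped. Under Comp.2 the difference was 0.21 (95% interval 0.03 to 0.40, adjusted p = 0.396). PPP1R15A encodes GADD34, the subunit that directs a phosphatase to eIF2α and so ends the response. It had 6.882 and 6.987 in vehicle, 6.984 and 6.856 under Comp.2, and 6.909 and 6.999 under Comp.4. Its 3 groups overlapped, and the interval of the Comp.2 difference ran from -0.22 to 0.19.

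The second question was what Comp.4 did to the same genes, against the same vehicle arrays. No member passed (limma, 0.147% of genes did). In the main fit none passed at an unadjusted p under 0.05, which 8.64% of all genes did with a higher and 7.88% with a lower level (16.5% in all). With a variance trend ATF4 and NUPR1 were higher at that unadjusted level, as were 2098 of 22395 genes. So was ATF3 with only the 2 groups compared (1999 genes), and NUPR1 after a further quantile normalization (1751 genes). ATF4, ATF3, CEBPB and NUPR1 had Comp.4 arrays above both vehicle arrays, as did 27.2% of all genes. The differences were 0.10 for ATF4 (95% interval -0.08 to 0.29), 0.19 for ATF3 (-0.02 to 0.41), 0.11 for CEBPB (-0.07 to 0.29) and 0.16 for NUPR1 (-0.03 to 0.35). TRIB3 had 0.07 (-0.14 to 0.29), CEBPG 0.0004 (-0.26 to 0.26), DDIT3 0.01 (-0.31 to 0.34), PPP1R15A 0.02 (-0.18 to 0.22) and DDIT4 -0.06 (-0.23 to 0.12). The difference was above 0 for 8 of the 9, as for 54.9% of all genes, and the median of the 9 was 0.07, against 0.02 over all genes. Without the first Comp.4 array that median was 0.044, the ATF4 difference 0.044 and that of CEBPB 0.062; without the second they were 0.10, 0.165 and 0.16. The intervals are wide enough to hold rises of 0.41 for ATF3 and 0.35 for NUPR1. The Comp.2 difference lay below the Comp.4 interval for ATF4, TRIB3, CEBPG, DDIT4, ATF3 and CEBPB. This leaves out the error of the Comp.2 difference. The intervals of both differences were apart for ATF4 and TRIB3 and overlapped for CEBPG, DDIT4, ATF3 and CEBPB. Without 1 array the Comp.2 difference still lay below the Comp.4 interval of the full fit for ATF4 (at most -0.39) and TRIB3 (at most -0.48). Without the first Comp.2 array it reached inside that interval for CEBPG (-0.19) and ATF3 (0.0011). For DDIT4 it did so without the second vehicle array (-0.20), and for CEBPB it reached the edge without the first (-0.069). Vehicle arrays enter both differences, and the Comp.4 difference then moved too, to 0.0041 for DDIT4 and 0.14 for CEBPB. Taken directly without 1 array, Comp.4 minus Comp.2 ran from 0.2055 to 0.2107 for DDIT4 and 0.16 to 0.26 for CEBPB. It ran from 0.19 to 0.50 for CEBPG and 0.19 to 0.38 for ATF3.

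**Figure D2:**
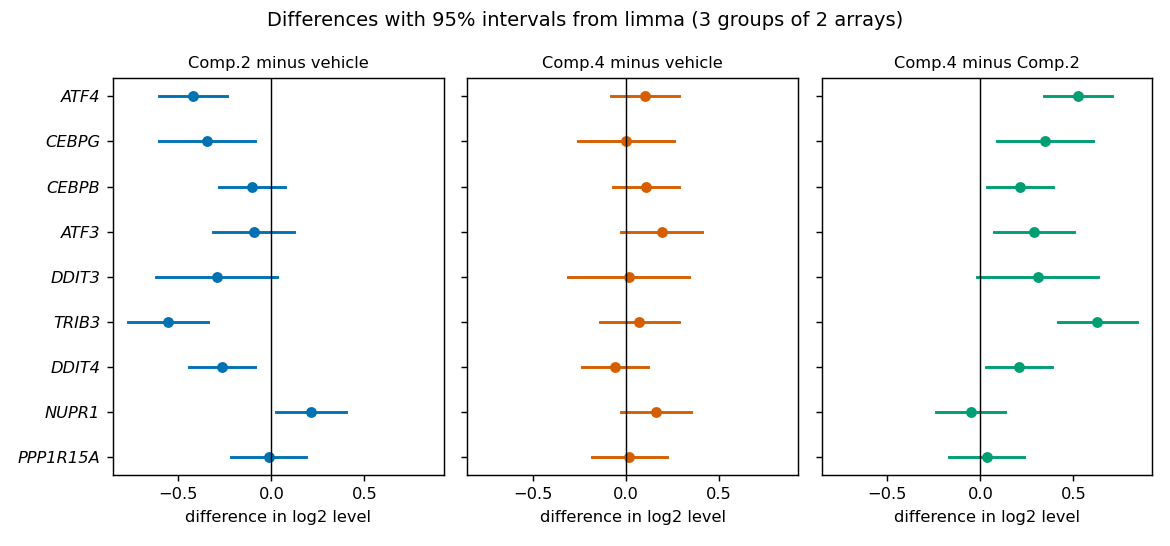
Difference in log2 level (x axis) of each of 9 ATF4 arm genes in 3 comparisons, with points at the limma estimate and lines for the 95% interval. TRIB3 (-0.56) and ATF4 (-0.42) lie farthest below 0 for Comp.2 minus vehicle, every interval crosses 0 for Comp.4 minus vehicle, and TRIB3 (0.63) and ATF4 (0.53) lie farthest above 0 for Comp.4 minus Comp.2.

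The third question was whether the compounds differed at the same dose and time, a single pair. The Comp.2 arrays enter both this comparison and the first, so the values are not separate evidence. TRIB3 was 1.55-fold higher under Comp.4 than under Comp.2 (log2 difference 0.63, SE 0.090, 95% interval 0.42 to 0.84), and ATF4 1.44-fold higher (0.53, SE 0.076, 0.34 to 0.71); both had an adjusted p = 0.0593 by limma and narrowly missed the threshold. No member passed, against 0.371% of all genes. With a variance trend 3 of the 9 passed: ATF4 (adjusted p = 0.000239), TRIB3 (0.00152) and DDIT4 (0.0420), where 2.16% of all genes were called higher. In the brighter genes ATF4 (adjusted p = 0.00951) and TRIB3 (0.00968) passed, of 7 members kept, against 2.89% of the genes in that fit called higher. Over 13 alternatives the adjusted p ran from 0.000239 to 0.242 for ATF4, from 0.00152 to 0.222 for TRIB3 and from 0.0420 to 0.458 for DDIT4.

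At an unadjusted p under 0.05, 6 of the 9 were higher under Comp.4, against 7.52% of all genes (15% in either direction), and none was lower. Without any 1 Comp.2 or Comp.4 array fewer of the 9 were higher at that level, and fewer of all genes too. Beside ATF4 and TRIB3 the 6 were CEBPG (0.35, 95% interval 0.09 to 0.60), ATF3 (0.29, 0.07 to 0.51), CEBPB (0.21, 0.03 to 0.39) and DDIT4 (0.21, 0.03 to 0.39). DDIT3 had 0.31 with an interval from -0.02 to 0.63 by its brighter probe set, -0.10 by the other (-0.39 to 0.20) and 0.11 by their mean. The 7 named so far had Comp.4 arrays above both Comp.2 arrays, as did 23.7% of all genes. NUPR1 (-0.05, 95% interval -0.24 to 0.13) and PPP1R15A (0.03, -0.17 to 0.24) overlapped between the compounds. The difference was above 0 for 8 of the 9 (52.3% of all genes) and below 0 for NUPR1 (47.7%). The median of the 9 was 0.29, against 0.01 over all genes. It was 0.19 without the first Comp.2 array and 0.23 without the second. Without the first Comp.4 array it was 0.25, and 0.33 without the second. The sizes for CEBPG and DDIT3 depended on the Comp.2 arrays: CEBPG had 0.19 without the first and 0.50 without the second, and DDIT3 had 0.52 and 0.10.

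Genes around the arm were described from lists. The kinases and factors that control eIF2 showed no call among 20 measured of 22 written, in any of the 3 comparisons (limma). At an unadjusted p under 0.05, 1 was lower under Comp.2 (4.94% of all genes) and 3 under Comp.4 (7.88%), and none was higher (6.23% and 8.64%); their medians were -0.05 and -0.02. Between the compounds 2 were higher and 3 lower under Comp.4 (7.52% and 7.45% of all genes). PPP1R15B, which encodes the constitutive counterpart of the PPP1R15A subunit, had the largest Comp.2 difference. It stood at 9.278 and 9.270 in vehicle, 9.002 and 8.962 under Comp.2, and 9.070 and 9.049 under Comp.4. Every treated array was thus below both vehicle arrays (-0.29 and -0.21, adjusted p = 0.228 and 0.203). EIF2AK3, which encodes the ER stress kinase PERK, had 0.20 under Comp.2, with EIF2AK2, the kinase PKR that senses double-stranded RNA, at -0.23 under Comp.4. Between the compounds the largest differences were those of EIF2AK3 (-0.28) and IMPACT (0.25), which encodes an inhibitor of the amino acid sensor GCN2.

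Downstream, of 44 measured ATF4 target effector genes (45 written) 10 fell and 1 rose under Comp.2; of all genes 0.0625% fell and 0.134% rose. This list was written with strong falls of several of its members already known, so its count is no independent evidence of direction. The median was -0.31. The largest falls were those of CHAC1, a glutathione-degrading enzyme (-1.86, SE 0.11), ULBP1, which natural killer cells recognise through the receptor NKG2D (-1.23, SE 0.11) and STC2, a secreted glycoprotein (-1.23, SE 0.076). CBS, the first enzyme of transsulfuration, and SLC7A1, a transporter of cationic amino acids, also fell, and are named for their place in amino acid supply, after their values were seen. CBS had 6.21 and 6.11 in vehicle against 5.50 and 5.50 under Comp.2 (-0.66, SE 0.075, adjusted p = 0.0407 by limma). SLC7A1 had 8.94 and 8.99 against 8.30 and 8.38 (-0.63, SE 0.075, adjusted p = 0.0460 by limma). ASNS (-1.01), PSAT1 (-0.82) and PHGDH (-0.69), of amino acid synthesis, passed with larger falls. Other listed genes did not pass: CTH, also of transsulfuration, had -0.16. The transporter genes SLC7A5, SLC3A2 and SLC38A2 had -0.07, -0.09 and -0.10. GDF15, a stress-induced cytokine that p53 also induces, rose by 0.85.

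Under Comp.4, GDF15 rose (0.74) and no effector gene fell, of the 44; 0.0536% of all genes rose and 0.0938% fell. At an unadjusted p under 0.05, 16 effector genes were lower and 1 was higher (7.88% and 8.64% of all genes), and the median was -0.14. Of the 9 ATF4 arm genes, 8 had a difference above 0, as did 54.9% of all genes. In the main fit none of the 9 passed at an unadjusted p under 0.05. Against Comp.2, 5 effector genes were higher under Comp.4 (CHAC1, ULBP1, STC2, ASNS and CARS1) and none lower; 0.192% of all genes were higher and 0.179% lower. The effector median there was 0.18.

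**Figure D3:**
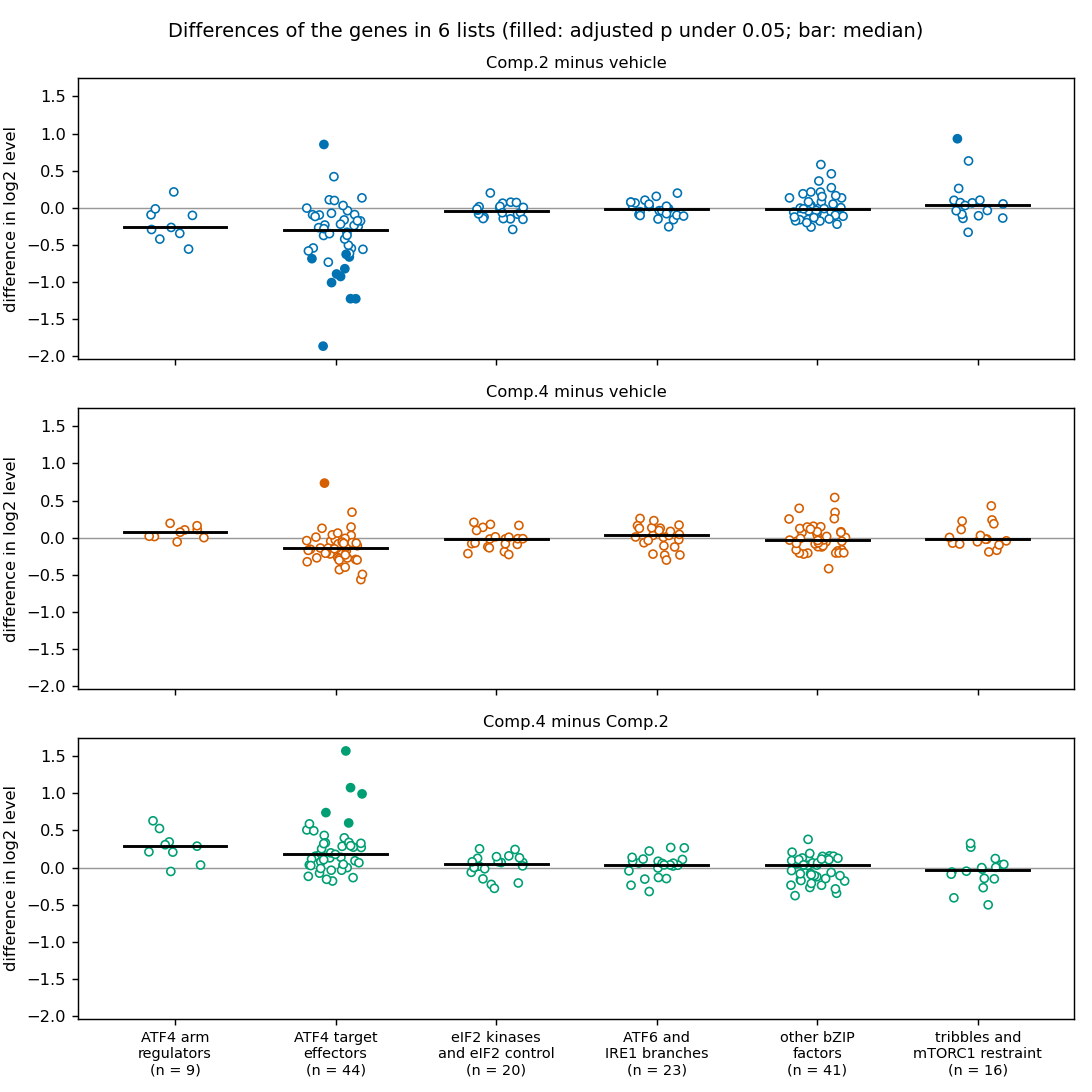
Difference in log2 level of each gene (points, spread sideways at random) in 6 lists for the 3 comparisons; filled points had an adjusted p under 0.05 and black bars are list medians. For Comp.2 minus vehicle the medians of the ATF4 arm (-0.26) and of its target effectors (-0.31) lie below those of the other 4 lists, which are between -0.05 and 0.04. Some lists share genes, and all were chosen with earlier results of these data known.

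The other bZIP factors, ATF4's potential partners and rivals, had no call among 41 measured of 46 written in any comparison (limma; 9, 11 and 7 at an unadjusted p under 0.05, against 11.2%, 16.5% and 15% of all genes). Their medians were -0.01, -0.03 and 0.03. FOSL1, a subunit of the AP-1 complex, had 5.96 and 6.19 in vehicle, 6.66 and 6.66 under Comp.2, and 6.71 and 6.52 under Comp.4. Its treated arrays were all above vehicle (0.58 and 0.54, adjusted p = 0.135 and 0.102). FOSL2, another AP-1 subunit, had 0.46 under Comp.2 and was 0.38 lower under Comp.4 than under Comp.2. ATF7, a relative of ATF2, had -0.42 under Comp.4, and CEBPA, a differentiation factor, was 0.38 higher under Comp.4 than under Comp.2.

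The ATF6 and IRE1 branches, which respond to misfolded protein in the endoplasmic reticulum beside PERK, had no call among 23 measured of 24 written in any comparison (limma; 2, 7 and 5 at an unadjusted p under 0.05, against 11.2%, 16.5% and 15% of all genes). Their medians were -0.01, 0.03 and 0.04. HERPUD1, an ER membrane protein of protein degradation that ATF4 also induces, had -0.26 under Comp.2, and DERL3, of the same degradation route, 0.20. SYVN1, an ER ubiquitin ligase, had -0.30 under Comp.4 and -0.32 against Comp.2, with DERL3 at 0.26 under Comp.4 and the translocon gene SEC61B at 0.27 against Comp.2. The last list held 16 genes of the tribbles family and mTORC1 control, with MTOR, RPTOR and RHEB beside genes that restrain the complex. SESN1, a p53-induced sestrin, rose under Comp.2 (0.93, SE 0.11, adjusted p = 0.0417 by limma), as did 0.134% of all genes. Its level went from 5.24 and 5.39 to 6.16 and 6.34, while DDIT4 of the ATF4 arm lay lower. No other gene of the 16 passed. None passed under Comp.4, where SESN1 had 0.43 and CASTOR1, an arginine sensor, 0.24 (limma; 3 of 16 at an unadjusted p under 0.05, against 16.5% of all genes). None passed between the compounds, where SESN1 had -0.50 and RHEB, an activator of mTORC1, 0.33 (limma; 4 of 16 unadjusted, against 15% of all genes).

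The genes with the pattern most like ATF4 over the 6 arrays were sought by Pearson's r among genes brighter than the median gene with an SD over the arrays of at least 0.2. They were NT5C, a nucleotidase (r = 0.995), HAUS1 of the mitotic augmin complex (0.9945), PYCR1 of proline synthesis (0.9945), the lipid transfer gene PCTP (0.9885) and the small nucleolar RNA SNORD12 (0.981), of 981 candidates. The same search for TRIB3, the member with the widest spread over the arrays (SD 0.32), gave TGFBR3L (0.987), PCTP (0.984), the amino acid transporter gene SLC7A10 (0.981), the ribosomal protein gene RPL39L (0.979) and ULBP1 (0.969). NT5C had 7.60 and 7.64 in vehicle, 7.26 and 7.30 under Comp.2, and 7.74 and 7.70 under Comp.4. PYCR1 had 7.71 and 7.74, then 7.24 and 7.36, then 7.85 and 7.78. In both, as in ATF4, the Comp.2 arrays were lowest and the Comp.4 arrays highest. With 6 arrays in 3 groups such values of r describe the order of the groups and little more, and no p is given.

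**Figure D4:**
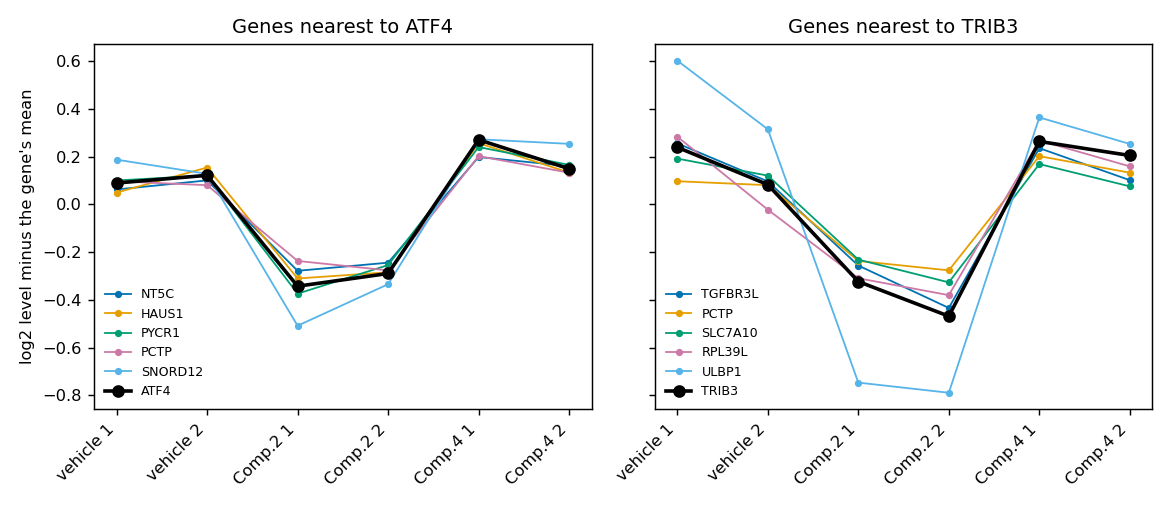
Log2 level minus each gene's own mean on the 6 arrays, for ATF4 (left, black) and TRIB3 (right, black) with the 5 genes nearest to each by Pearson's r. All curves dip on the Comp.2 arrays, and that of ULBP1 dips deeper than TRIB3 itself.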

How the data were processed

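The deposited log2 values of 53617 probe sets were made by the authors with RMA, per the submitters' processing notes. Transcriptome Analysis Console 2.0 and Affymetrix Expression Console 1.3.1 are also listed there, with no role given. The genome build is not given in the sources used here. RMA makes array distributions equal, so a change shared by most transcripts cannot be seen, and its background floor shrinks differences of dim probe sets. Detection calls and scan dates were not used. The number of arrays limits the precision.

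Probe sets were named from the platform annotation: 23871 had 1 symbol, 1842 several and 27904 none. Symbols were updated through Entrez numbers (90 changed). The brightest probe set stood for a gene, which gave 22395 genes. limma 3.58.1 in R 4.3.3 fitted a mean per group to all 6 arrays (3 residual and 3.71 prior degrees of freedom); p-values are two-sided and Benjamini-Hochberg adjusted over all genes, with a threshold of 0.05. Exact permutation of 2 arrays against 2 has too few arrangements to pass it and was not run. The fit was tested on simulated data. Genes named from lists were the 3 largest past the threshold or, where none passed, the 2 largest whose arrays did not overlap; exceptions are marked. Members and lists were chosen with earlier results of these data known.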

Additional observations from a re-analysis of the deposited data

How the results depend on the processing

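Each comparison was refitted under 13 alternatives. Leaving out either array of the group not compared gave the same fit as using only the 2 groups compared, so not all 13 are distinct. The number of ATF4 arm genes past the threshold stayed at 0 except when a variance trend was fitted (3 lower for Comp.2 against vehicle, 3 higher for Comp.4 against Comp.2) and in the brighter genes (2 and 2). Genes called over the whole table, 30 higher and 14 lower for Comp.2, 12 and 21 for Comp.4, and 43 and 40 for Comp.4 against Comp.2, moved more. They were 226 and 162, 488 and 738, and 484 and 591 when the trend was fitted, and 154 and 79, 340 and 499, and 324 and 392 in the brighter genes. With only the 2 groups compared they were 9 and 5, 0 and 0 (1999 and 1767 at an unadjusted p under 0.05), and 0 and 0 (1448 and 1400). Among protein-coding genes alone, Comp.4 had 0 and 0 (1624 and 1540 unadjusted), and 14 were higher against Comp.2. Without any 1 array the counts by limma fell in every comparison. For Comp.2 against vehicle they fell furthest without a vehicle or Comp.2 array. They fell less without a Comp.4 array, which enters that comparison only through the shared spread. The lone array left in a group is then assumed to vary like the others.

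Array numbers are shared between groups, but replicate differences correlated at 0.03, 0.01 and -0.04 between groups, so the numbers were not taken to pair the arrays. With the replicate number as a block the counts were 9 and 6 for Comp.2, 0 and 4 for Comp.4, and 0 and 0 for Comp.4 against Comp.2 (1609 and 1518 unadjusted); no ATF4 arm gene passed, and ATF4 had an adjusted p = 0.247 for Comp.2.

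Some small differences changed sign without 1 array. Over those fits the Comp.2 difference of PPP1R15A ran from -0.079 to 0.050 and of ATF3 from -0.19 to 0.0011. The Comp.4 difference ran from -0.0087 to 0.0096 for CEBPG, -0.033 to 0.071 for PPP1R15A, -0.12 to 0.0041 for DDIT4, -0.0049 to 0.15 for TRIB3 and -0.041 to 0.071 for DDIT3. Between the compounds NUPR1 ran from -0.11 to 0.0054 and PPP1R15A from -0.031 to 0.098. The Comp.4 difference of DDIT3 was -0.017 after a further quantile normalization and -0.079 with the mean of its probe sets. The cause of these changes was not tested. ATF4 ran from -0.45 to -0.39 for Comp.2 (adjusted p from 0.00134 to 0.557 over its alternatives) and TRIB3 from -0.63 to -0.48 (0.00466 to 0.517).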
